A study of Homo sapiens with 6 samples.

Results

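The transcripts of 10 genes of the NRF2 pathway and its antioxidant targets (NFE2L2, KEAP1, HMOX1, GCLC, GCLM, TXNRD1, SRXN1, SLC7A11, FTH1 and TXN) were examined in H9 cells treated with a CDK9 inhibitor. The genes were taken by symbol, and each matched 1 of 61541 genes in the bulk RNA-seq count table. H9 is a clonal derivative of the HuT 78 line of cutaneous T-cell lymphoma, so that all libraries stem from 1 genetic background, labelled as wild type. The labels of the 2 groups differ in treatment: 3 libraries were from cells given vehicle (DMSO), and 3 from cells given the selective CDK9 inhibitor AZD4573 (50 nM, 4 h). The labels give no time for DMSO and do not say whether replicates were separate cultures, so that p-values measure the spread between these libraries, which may be technical.

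NRF2, encoded by NFE2L2, is a transcription factor that binds antioxidant response elements together with small MAF proteins. Its abundance is set mainly at the protein level: KEAP1 holds it in a CUL3 ubiquitin ligase complex for degradation, and oxidation or alkylation of KEAP1 cysteines lets it escape. Its classical targets make and spend reducing power through glutathione and thioredoxin, and also dispose of heme and iron. CDK9 is the kinase of P-TEFb that releases paused RNA polymerase II (RNAP2) into elongation, so that short-lived transcripts are usually the first to fall when it is inhibited.

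Total counts ranged from 70367303 to 76571157 with DMSO and from 52101868 to 63795185 with AZD4573. Of 17 T-cell markers, 16 had at least 10 counts in every library, CD2 being the exception. Their summed level was 2310 to 2321 CPM (counts scaled to a common library size) with DMSO and 2706 to 2763 CPM with AZD4573. Among 18 markers of other cells, 7 had at least 10 counts in every library. EPCAM (6913 to 13094 counts) and CD79A (4028 to 6008 counts) were plainly present. COL1A1 (216 to 544 counts) and the pluripotency gene POU5F1 (78 to 141 counts) were lower but found in every library. NANOG, another pluripotency gene, and FCGR3A, HBB and VWF had 0 counts in each library. The whole list summed to 221 to 241 CPM with DMSO and 223 to 231 CPM with AZD4573. The part of these markers in the results was not tested. Because a CDK9 inhibitor can lower RNAP2 transcripts at large, the scaling of the libraries matters. Transcripts of the mitochondrial genome, which RNAP2 does not make, took 3.04% to 3.22% of the counts with DMSO and 4.67% to 4.98% with AZD4573. With libraries scaled to these 13 mRNAs in place of edgeR's TMM method, the median log2 fold change of all genes moved from 0.03 to -0.71. This scale takes the 13 mRNAs to be unchanged by AZD4573, which was not tested. Levels below are TMM-normalized CPM, log2 fold changes are AZD4573 against DMSO, and rose or fell refers to an adjusted p under 0.05 on the TMM scale, by the quasi-likelihood test of edgeR, Benjamini-Hochberg adjusted across 17678 genes.

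The antioxidant response element has the core letters TGACNNNGC, and the promoters of the 10 genes were searched for it on both strands to show where these letters lie. RefSeq windows on GRCh38.p14, each running from 250 bases before to 50 bases after a transcription start, were at hand for 7 genes (10 windows): NFE2L2, KEAP1, GCLC, GCLM, TXNRD1, SRXN1 and TXN. HMOX1, SLC7A11 and FTH1 were not in the table used. The letters occurred 6 times, in 4 windows of 3 genes (GCLM, TXNRD1 and KEAP1). They occurred in 13.3% of all 35116 windows, and in 10 of 37 windows (27.0%) of other NRF2 targets. None of the 6 matches overlapped TGANTCA, the AP-1 motif. Each is shown in the direction of transcription with the motif in capitals, so that a match on the opposite strand appears as the reverse complement of these letters.
GCLM: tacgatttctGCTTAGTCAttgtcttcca
TXNRD1 first start, distal: acacgggctaTGACTTCGCtgttgtcacc
TXNRD1 first start, proximal: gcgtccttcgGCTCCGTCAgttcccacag
TXNRD1 second start: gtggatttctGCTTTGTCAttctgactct
KEAP1 second start, distal: acttttattgTGACACGGCgggcgcccgg
KEAP1 second start, proximal: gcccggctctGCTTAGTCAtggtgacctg
The GCLM window lies at chr1:93909446-93909474 (minus strand), with the motif 34 to 26 bases before the start. The TXNRD1 windows (plus strand) lie at chr12:104215670-104215698, chr12:104215761-104215789 and chr12:104286920-104286948. The KEAP1 windows (minus strand) lie at chr19:10502807-10502835 and chr19:10502784-10502812, both wholly within annotated exon sequence, as does the window at the second TXNRD1 start, and 11 of the 29 bases are exonic in the GCLM window and in the proximal window of the first TXNRD1 start. The same 9 letters, GCTTAGTCA, stand in the GCLM window and in the proximal KEAP1 window.

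The 250 bases before the GCLC start (chr6:53545102-53545351, minus strand) are shown because GCLC had the largest fall of the 10 genes. They hold no match to the motif, and sequence further upstream was not searched. By TMM, KEAP1 and TXNRD1, with a match, fell and GCLM, with a match, rose. Without a match, GCLC and SRXN1 fell and NFE2L2 and TXN rose. Whether a match goes with the direction of change was not tested.
GCLC: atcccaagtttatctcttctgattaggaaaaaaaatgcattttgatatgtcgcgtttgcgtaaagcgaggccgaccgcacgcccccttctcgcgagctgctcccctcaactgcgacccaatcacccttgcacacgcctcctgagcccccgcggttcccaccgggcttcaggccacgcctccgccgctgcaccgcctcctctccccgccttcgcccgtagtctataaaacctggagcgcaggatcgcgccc

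The 2 regulators of the pathway moved apart, with the transcription factor up and its inhibitor down. NFE2L2 (ENSG00000116044, GRCh38 chr2:177218667-177392756, minus strand) was at 68.6, 69.2 and 67.1 CPM with DMSO and at 125, 149.6 and 145 CPM with AZD4573. The DMSO libraries lay close together, and each AZD4573 library was well above them, replicate 1 least so. NFE2L2 rose 2.05-fold, from 68.3 ± 1.08 to 139.8 ± 13.4 CPM (SD, n = 3), for a log2 fold change of 1.03 ± 0.0615 (SE, adjusted p = 4.34e-09). KEAP1 (ENSG00000079999, chr19:10486125-10503558, minus strand), the substrate adaptor that presents NRF2 for ubiquitination, was at 184, 172 and 174 CPM with DMSO and at 66.4, 62.2 and 62.2 CPM with AZD4573. The groups were far apart and each was tight. KEAP1 fell 2.78-fold, from 177 ± 6.47 to 63.6 ± 2.47 CPM (SD, n = 3), with a log2 fold change of -1.48 ± 0.0472 (SE, adjusted p = 3.39e-11). Both directions held when the libraries were scaled to the mitochondrially encoded mRNAs, where NFE2L2 had a log2 fold change of 0.29 (adjusted p = 4.87e-04) and KEAP1 of -2.21. Of all 14975 annotated exon bases of NFE2L2, 5747 (38.4%) are shared with other genes, which counting without strand may not keep apart. HNRNPA3 on the opposite strand covers 3509 of them and had 35489 to 36815 counts with DMSO and 24134 to 31415 with AZD4573. None of these 3509 bases is in the canonical transcript, which shares 190 of 2446 bases, with an antisense RNA that had at most 4 counts. What these overlaps add to the NFE2L2 counts was not tested. KEAP1 shares no exon base with another gene.

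The ratio of NFE2L2 to KEAP1 counts does not depend on how the libraries are scaled. It was 0.372, 0.402 and 0.386 with DMSO and 1.88, 2.41 and 2.34 with AZD4573, a 5.68-fold rise (exact permutation test, p = 0.1, the smallest that 3 against 3 libraries allow; adjusted p = 0.1 over 6 ratios). KEAP1 counts thus exceeded NFE2L2 counts in each DMSO library, and the order was turned in each AZD4573 library.

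The glutathione branch split into 3 responses. SLC7A11 (ENSG00000151012, chr4:138164097-138242349, minus strand), the cystine importer of system xc- that feeds glutathione synthesis, was nearly silent with DMSO. It had 97, 69 and 60 counts with DMSO (1.24, 0.942 and 0.815 CPM) and 297, 557 and 616 counts with AZD4573 (5.84, 9.77 and 10.1 CPM). All AZD4573 libraries were several times above all DMSO libraries, with replicate 1 the lowest of them. SLC7A11 rose 8.57-fold, a log2 fold change of 3.10 ± 0.216 (SE, adjusted p = 2.02e-08), which exceeded that of 97.0% of all genes tested. Leaving out any 1 library gave values from 2.96 to 3.31, and it was 2.35 when scaled to the mitochondrially encoded mRNAs. An antisense gene, SLC7A11-AS1, covers 865 of its 9645 transcript bases and had 0 counts in each library.

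GCLC (ENSG00000001084, chr6:53497341-53616970, minus strand) encodes the catalytic subunit of glutamate-cysteine ligase, the rate-limiting enzyme of glutathione synthesis. It was at 92.0, 93.1 and 91.8 CPM with DMSO and at 29.7, 23.4 and 23.5 CPM with AZD4573. GCLC fell 3.62-fold, from 92.3 ± 0.692 to 25.5 ± 3.62 CPM (SD, n = 3), with a log2 fold change of -1.86 ± 0.0776 (SE, adjusted p = 2.13e-10). Only 3.73% of all genes tested had a lower one. The value was -2.59 on the mitochondrial scale. An antisense gene, GCLC-AS1, covers 252 of its 3785 transcript bases and had at most 4 counts. GCLM (ENSG00000023909, chr1:93885199-93909456, minus strand), the modifier subunit of the same enzyme, was at 58.7, 57.7 and 57.6 CPM with DMSO and at 59.3, 64.0 and 66.6 CPM with AZD4573. The lowest AZD4573 library was barely above the highest DMSO library. Its log2 fold change of 0.13 ± 0.0516 (SE, adjusted p = 0.0379) passed the test, but not with library size as the only scaling (0.02, adjusted p = 0.678), and scaled to the mitochondrially encoded mRNAs it turned to -0.61. It also lost its call with any library but AZD4573 replicate 1 left out (adjusted p from 0.0527 to 0.192) and with a replicate block (adjusted p = 0.0517).

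The balance of the 2 subunits changed, mostly through the fall of GCLC. On the mitochondrial scale both fell, GCLM with -0.61 and GCLC with -2.59. The ratio of GCLM to GCLC counts was 0.638, 0.619 and 0.627 with DMSO and 2, 2.74 and 2.83 with AZD4573, a 3.97-fold rise (exact permutation test, p = 0.1, adjusted p = 0.1). The ratio of SLC7A11 to GCLC counts went from 0.0108 ± 0.00236 to 0.348 ± 0.131 (SD, n = 3), a 30.8-fold rise with groups that did not overlap (exact permutation test, p = 0.1, adjusted p = 0.1).

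**Figure D1:**
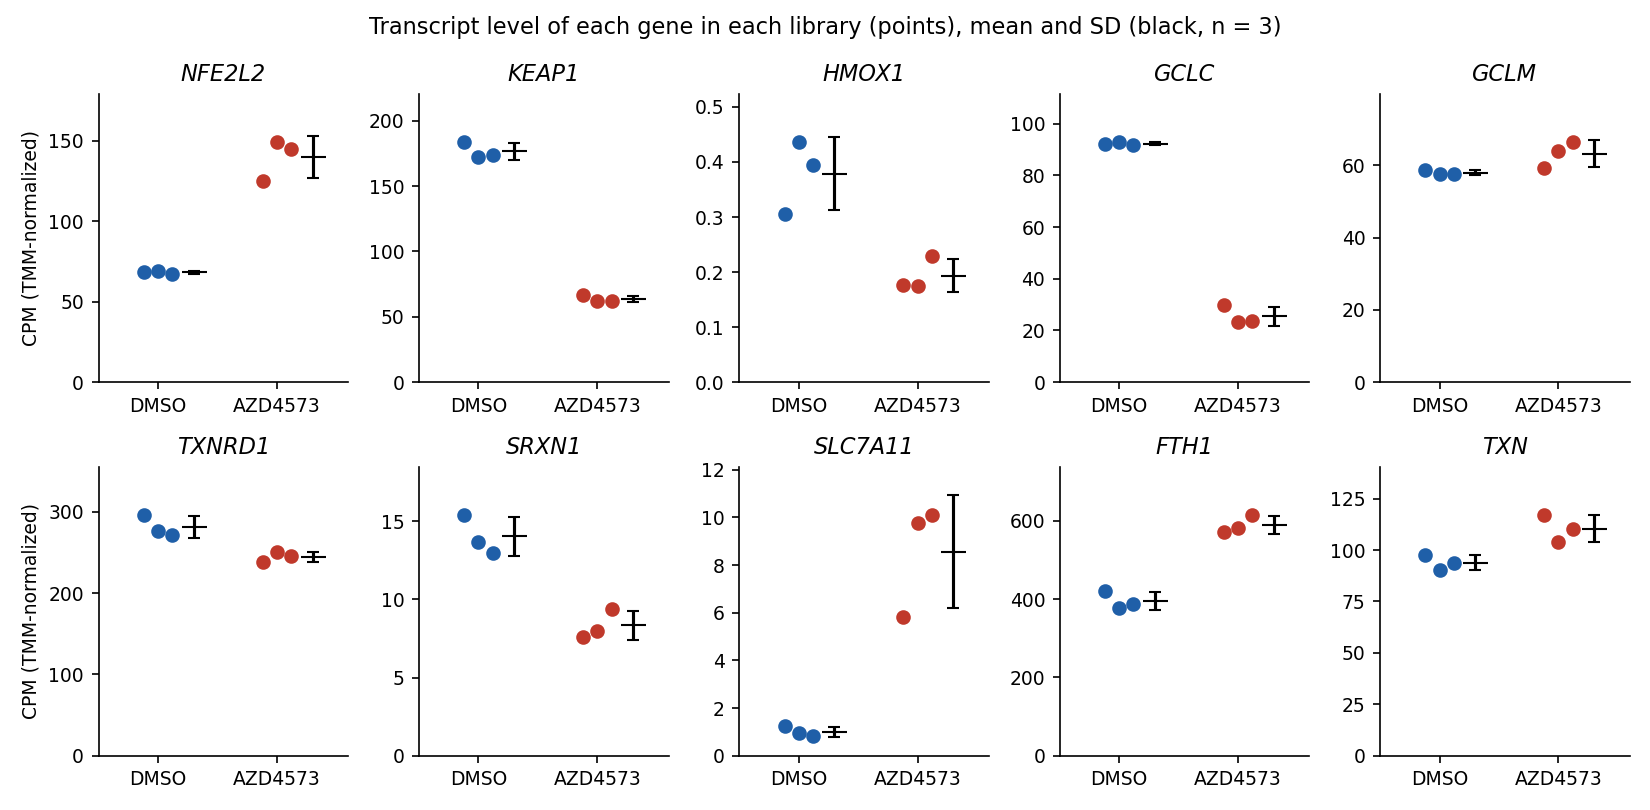
TMM-normalized CPM (y axes from 0) of each of the 10 genes in the 3 DMSO libraries (blue) and the 3 AZD4573 libraries (red), with the mean and SD in black. KEAP1, GCLC, SRXN1, HMOX1 and TXNRD1 are lower with AZD4573, while NFE2L2, SLC7A11, FTH1, TXN and, barely, GCLM are higher; FTH1, TXN and GCLM are lower on the mitochondrial scale.

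In the thioredoxin branch the changes were smaller and mixed on the TMM scale, and all were downward on the mitochondrial scale. TXN (ENSG00000136810, chr9:110243810-110256507, minus strand), the small disulfide reductase thioredoxin, was at 97.4, 90.1 and 93.8 CPM with DMSO and at 117, 104 and 110.4 CPM with AZD4573. Its log2 fold change was 0.24 ± 0.0516 (SE, adjusted p = 9.44e-04), and it turned to -0.50 when scaled to the mitochondrially encoded mRNAs. TXNRD1 (ENSG00000198431, chr12:104215779-104350307, plus strand), the selenoprotein that reduces thioredoxin with NADPH, was at 296, 277 and 271 CPM with DMSO and at 238, 250.2 and 246 CPM with AZD4573. It fell 1.15-fold, with a log2 fold change of -0.20 ± 0.0439 (SE, adjusted p = 9.40e-04), and with -0.94 on the mitochondrial scale. SRXN1 (ENSG00000271303, chr20:646615-653200, minus strand), sulfiredoxin, which restores overoxidized peroxiredoxins, was at 15.4, 13.7 and 13 CPM with DMSO and at 7.6, 8 and 9.4 CPM with AZD4573. Each of these AZD4573 libraries was below each DMSO library. SRXN1 fell 1.68-fold, from 14.1 ± 1.24 to 8.34 ± 0.946 CPM (SD, n = 3), for a log2 fold change of -0.75 ± 0.0964 (SE, adjusted p = 8.86e-06). A second coding gene, ENSG00000270299, covers 2292 of the 2528 transcript bases of SRXN1 on the same strand and was listed with 0 counts in each library, so that the 2 genes cannot be told apart.

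Relative to each other, TXN gained on its reductase and SRXN1 lost. The ratio of TXN to TXNRD1 counts was 0.329, 0.325 and 0.346 with DMSO and 0.493, 0.416 and 0.448 with AZD4573, a 1.35-fold rise. The ratio of SRXN1 to TXN counts went from 0.159, 0.153 and 0.139 to 0.0650, 0.0769 and 0.0852, a 1.99-fold decrease. Neither pair of groups overlapped (exact permutation test, p = 0.1 for each, adjusted p = 0.1).

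The heme and iron genes lay far apart in abundance. HMOX1 (ENSG00000100292, chr22:35380361-35394214, plus strand), the inducible heme oxygenase and one of the best known NRF2 targets, was close to absent. It had 24, 32 and 29 counts with DMSO and 9, 10 and 14 with AZD4573, or 0.379 ± 0.0668 and 0.194 ± 0.0307 CPM (SD, n = 3). Each AZD4573 library was below each DMSO library. The log2 fold change of -0.95 ± 0.375 (SE, adjusted p = 0.0343) rests on few counts. The call was lost with DMSO replicate 2 or 3 or AZD4573 replicate 1 or 2 left out (adjusted p from 0.0822 to 0.121), under DESeq2 (adjusted p = 0.0943), when all genes with a count were kept (0.0660) and with a replicate block (0.0632).

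FTH1 (ENSG00000167996, chr11:61959718-61967634, minus strand), the ferritin heavy chain that oxidizes and stores iron, was the most abundant of the 10. It was at 420.4, 377 and 387 CPM with DMSO and at 572, 582 and 615 CPM with AZD4573. FTH1 rose 1.49-fold, from 395 ± 22.5 to 589.6 ± 22.6 CPM (SD, n = 3), for a log2 fold change of 0.58 ± 0.0490 (SE, adjusted p = 1.45e-07). Scaled to the mitochondrially encoded mRNAs it turned to -0.16 (adjusted p = 0.0231). Its 25 annotated pseudogenes together had between 0.325% and 0.476% of its counts. The gene shares 880 of 1203 transcript bases with BEST1 on the opposite strand. Reads of the 2 genes cannot be told apart there without strand, and BEST1 was listed with 56 to 130 counts. The ratio of HMOX1 to FTH1 counts went from 0.000967 ± 0.000219 to 0.000328 ± 3.92e-05 (SD, n = 3), with groups that did not overlap (exact permutation test, p = 0.1, adjusted p = 0.1).

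Of the 10 genes, all of which passed the filter on low counts, 5 fell (KEAP1, HMOX1, GCLC, TXNRD1 and SRXN1) and 5 rose (NFE2L2, GCLM, SLC7A11, FTH1 and TXN) on the TMM scale. Over all genes tested, 37.4% fell and 37.3% rose, or 74.7% in either direction, so that a call alone sets the 10 little apart from the table. Groups did not overlap for any of the 10, while 38.7% of all genes lay lower and 39.0% higher in this way. With a fold change of at least 1.5 as well, 4 fell (KEAP1, HMOX1, GCLC and SRXN1) and 2 rose (NFE2L2 and SLC7A11), against 23.7% and 22.7% of all genes. At 2-fold or more, KEAP1 and GCLC fell and NFE2L2 and SLC7A11 rose, against 13.9% and 15% of all genes. The median log2 fold change of the 10 was -0.04, beside 0.03 for all genes, with an interquartile range from -0.90 to 0.49 beside -0.59 to 0.58.

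On the mitochondrial scale, 8 of the 10 genes fell and 2 rose, beside 11878 lower and 2144 higher among all genes tested (67.2% and 12.1%, against 6606 and 6596 under TMM). GCLM, FTH1 and TXN changed direction with this scaling, and NFE2L2 and SLC7A11 did not. Relative to the median of all genes on the same scale, the values hardly moved: NFE2L2 was 1.01 above it under TMM and 1.00 above it under the mitochondrial scaling, and GCLC was -1.88 from it under both. With each cell's RNA content unknown, fewer transcripts per cell and fewer cells with the transcript cannot be told apart in these bulk libraries.

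**Figure D2:**
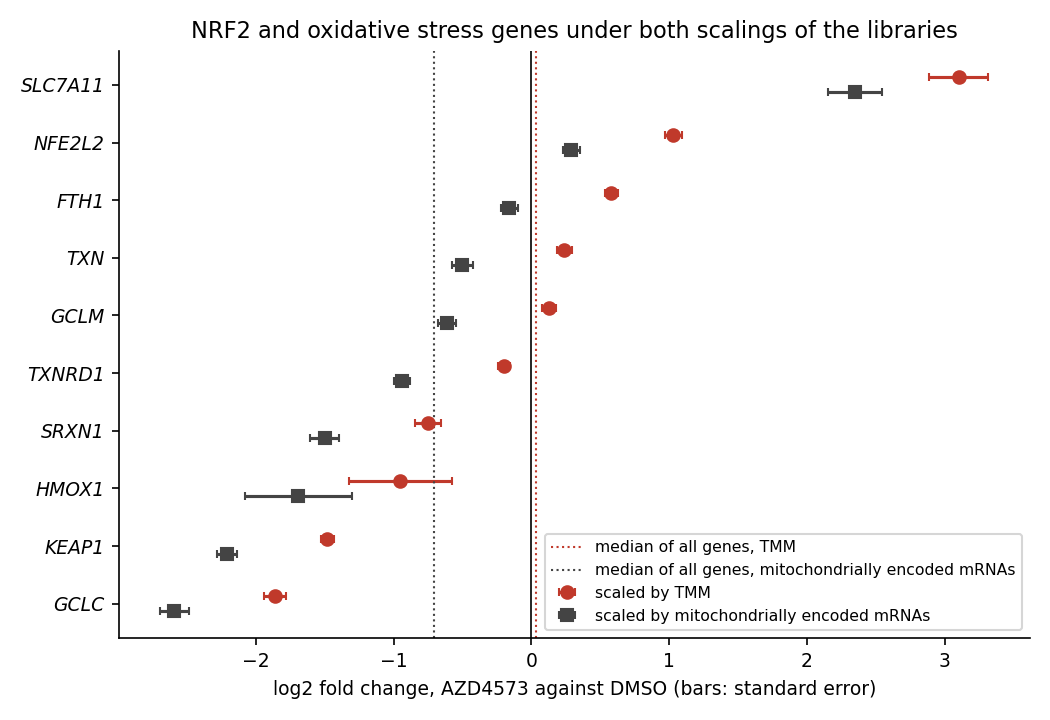
Log2 fold change with its standard error for each gene under TMM (red circles) and under scaling to the mitochondrially encoded mRNAs (grey squares), with the median of all genes under each as a dotted line (0.03 and -0.71). SLC7A11 and NFE2L2 stay above 0 under both, KEAP1 and GCLC stay far below 0, and FTH1, TXN and GCLM cross it.

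**Figure D3:**
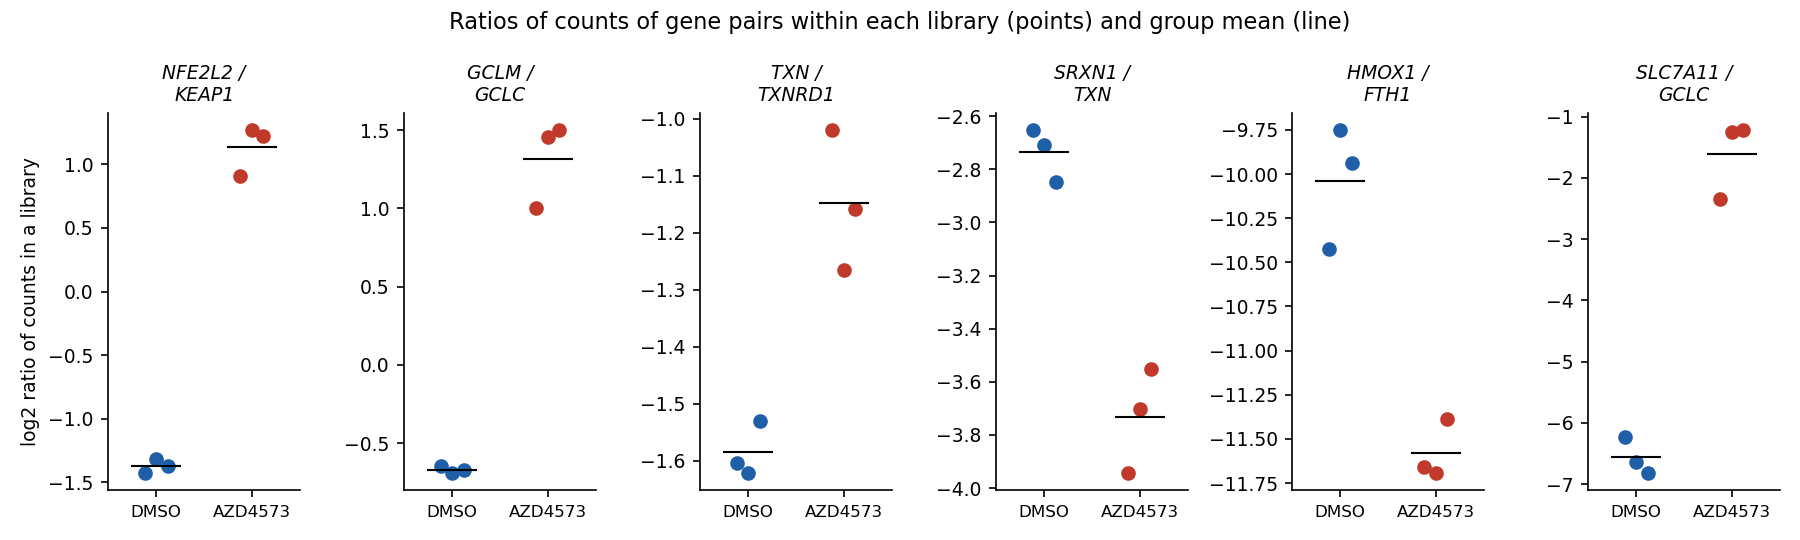
Log2 ratio of the counts of 6 gene pairs within each library, DMSO in blue and AZD4573 in red, with the group mean as a line; the y axes differ between panels. The groups are separate in all 6 panels, with the widest gap for SLC7A11 to GCLC (a difference of 4.94).

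Levels of different genes were compared as CPM per kb of the canonical transcript in GENCODE release 44. With DMSO the order was FTH1 (328 ± 18.7), TXN (127 ± 4.97), TXNRD1 (72.9 ± 3.33), KEAP1 (69.0 ± 2.52), NFE2L2 (27.9 ± 0.442), GCLC (24.4 ± 0.183), GCLM (11.9 ± 0.126), SRXN1 (5.56 ± 0.491), HMOX1 (0.244 ± 0.0430) and SLC7A11 (0.103 ± 0.0224 CPM per kb, SD, n = 3). TXNRD1 and KEAP1 did not differ beyond their spread, and all other neighbours were separate. With AZD4573, NFE2L2 (57.2 ± 5.47) stood above KEAP1 (24.8 ± 0.961), GCLM (13 ± 0.757) above GCLC (6.74 ± 0.957), and SLC7A11 (0.888 ± 0.246) above HMOX1 (0.125 ± 0.0198 CPM per kb, SD, n = 3). These 3 neighbouring pairs changed places, and the ranges of neighbours did not overlap in the AZD4573 order.

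**Figure D4:**
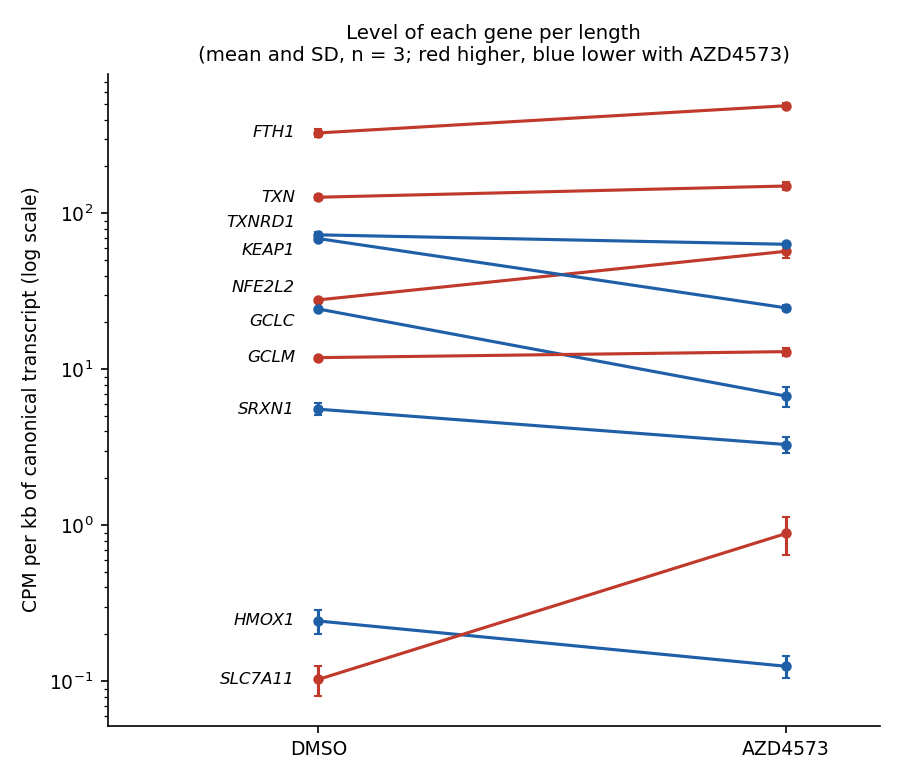
Mean CPM per kb of canonical transcript (log scale) of the 10 genes with DMSO and AZD4573, with SD over 3 libraries; red lines rise and blue lines fall on the TMM scale. The lines of NFE2L2 and KEAP1, of GCLM and GCLC, and of SLC7A11 and HMOX1 cross.

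The genes around NRF2 were followed in a list of 22 turnover factors and partners, of which 21 were tested. In this list 9 genes fell (42.9%) and 6 rose (28.6%), beside 37.4% and 37.3% of all genes, with a median log2 fold change of -0.05. On the mitochondrial scale 17 fell and 2 rose, where 67.2% of all genes fell and 12.1% rose. BACH2, a repressor that competes for antioxidant response elements, rose from 135 ± 2.65 to 559.6 ± 54.0 CPM (SD, n = 3), for a log2 fold change of 2.05. MAFG, a small MAF partner of NRF2, rose from 102 ± 2.84 to 302 ± 24.1 CPM (SD, n = 3), for a log2 fold change of 1.57. These rises held on the mitochondrial scale (1.31 and 0.83). NFE2L1, the related factor NRF1 that drives proteasome genes, had 0.66 and turned to -0.09 on that scale. Relatives of BACH2 and MAFG in the list went both ways by TMM. BACH1 (-0.82) and MAFF (-1.53, under 10 CPM in both groups) fell, and MAFK (0.66) rose. These relatives are named outside the rule for named genes, after their values were seen. CREBBP, an acetyltransferase that serves NRF2 as a coactivator, fell with -1.22, BTRC, which marks NRF2 for degradation apart from KEAP1, with -0.93, and NFE2L3, another factor of the family, with -0.89.

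Among 40 other NRF2 targets, 31 were tested. Of these, 7 fell (22.6%, all genes 37.4%) and 17 rose (54.8%, all genes 37.3%), with a median of 0.18. On the mitochondrial scale 23 fell and 4 rose, where 67.2% of all genes fell and 12.1% rose. Some targets, among them GSR, PRDX1, TXNIP, FTL and BLVRB, are counted again in the lists below, so that the lists are not independent. The carbonyl reductases CBR3 (-2.24) and CBR1 (-1.29) fell, as did TRIM16 (-1.27), a ubiquitin ligase. CBR3 went from 10.4 ± 0.892 to 2.21 ± 0.605 CPM (SD, n = 3). The taurine transporter gene SLC6A6 (1.28), the thioredoxin inhibitor gene TXNIP (1.15) and the aldehyde reductase gene AKR1A1 (0.79) rose. On the mitochondrial scale SLC6A6 and TXNIP stayed higher (0.54 and 0.41), and AKR1A1 no longer passed (0.05, adjusted p = 0.372). NQO1, the quinone reductase most often used as a readout of NRF2, was at 9.76 CPM with DMSO and 8.91 CPM with AZD4573 and did not pass the test (log2 fold change -0.13, adjusted p = 0.207), and on the mitochondrial scale it was lower (-0.87); it was chosen after its value was seen.

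Of 31 genes of glutathione synthesis and use, 26 were tested. By TMM 5 fell (19.2%, all genes 37.4%) and 17 rose (65.4%, all genes 37.3%), with a median of 0.36. On the mitochondrial scale 21 fell and 1 rose, where 67.2% of all genes fell and 12.1% rose. CHAC2, which degrades glutathione, fell from 11.8 ± 0.276 to 3.90 ± 0.755 CPM (SD, n = 3), for a log2 fold change of -1.61. The glutaredoxin genes GLRX2 (-0.68) and GLRX (-0.57) fell as well. GGT7 (0.75), of the gamma-glutamyltransferase family, GSTZ1 (0.69), a glutathione transferase of tyrosine catabolism, and GPX4 (0.56), which reduces lipid peroxides, rose by TMM. On the mitochondrial scale GGT7 was at 0.01, GSTZ1 turned to -0.04 and GPX4 to -0.18.

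Of 25 genes of thioredoxins, peroxiredoxins and superoxide enzymes, 22 were tested. By TMM 5 fell (22.7%, all genes 37.4%) and 11 rose (50.0%, all genes 37.3%), with a median of 0.34. On the mitochondrial scale 16 fell and 1 rose, where 67.2% of all genes fell and 12.1% rose. SESN1, a sestrin that restrains mTORC1, fell with -0.75, SOD2, the mitochondrial superoxide dismutase, with -0.40, and TXNL1, a thioredoxin-like protein of the proteasome, with -0.34. TXNIP rose from 113 ± 1.27 to 251 ± 8.76 CPM (SD, n = 3). CCS (0.86), the copper chaperone of SOD1, and PRDX5 (0.71), a peroxiredoxin, rose by TMM, and on the mitochondrial scale CCS was at 0.12 and PRDX5 turned to -0.04.

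Of 25 genes of heme and iron handling, 23 were tested. By TMM 10 fell (43.5%, all genes 37.4%) and 9 rose (39.1%, all genes 37.3%), with a median of 0.03. On the mitochondrial scale 22 fell and the remaining 1 did not pass, where 67.2% of all genes fell and 12.1% rose. The 9 became 5 with library size as the only scaling, and also 5 when all genes with a count were kept. CPOX, of heme synthesis, fell from 67.7 ± 1.01 to 25.6 ± 0.442 CPM (SD, n = 3), for a log2 fold change of -1.41. FLVCR1, first known as a heme exporter, fell with -1.02 and TFRC, the transferrin receptor, with -0.90. FTL (0.48), the ferritin light chain and partner of FTH1, BLVRB (0.57), a biliverdin reductase, and PPOX (0.39), of heme synthesis, rose by TMM and turned to -0.26, -0.17 and -0.35 on the mitochondrial scale. FTL was at 274, 243 and 245 CPM with DMSO and at 341, 345 and 372 CPM with AZD4573, so that both ferritin chains were higher in each AZD4573 library on the TMM scale.

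**Figure D5:**
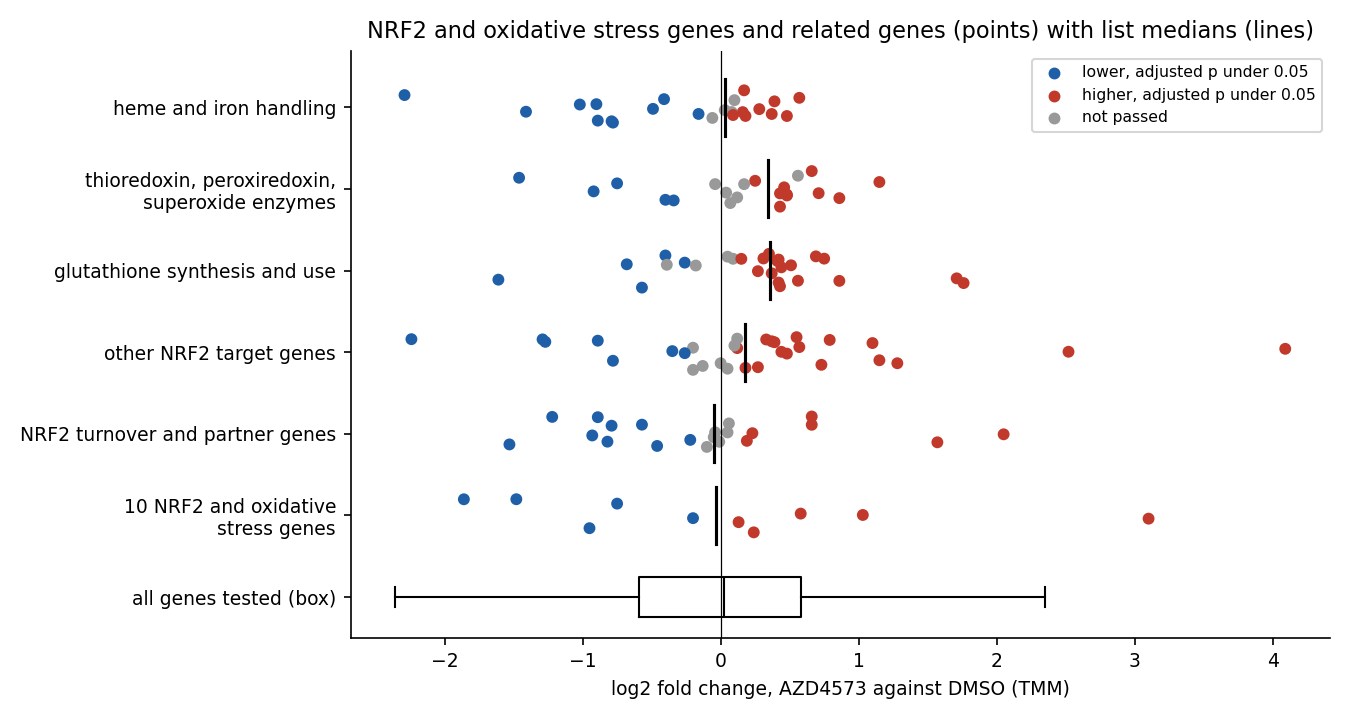
Log2 fold change (TMM) of the 10 genes and of the tested genes of 5 related lists, with the list median as a line, beside the box of all 17678 genes tested (box: quartiles; whiskers: 1.5 times the interquartile range). Blue points fell, red points rose and grey points did not pass. The glutathione list (median 0.36) and the thioredoxin list (0.34) lie to the right of all genes (0.03). On the mitochondrial scale most genes of each list fell, as did 67.2% of all genes.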

How the data were processed

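H9 cells were profiled by bulk RNA-seq (3 DMSO, 3 AZD4573 libraries). Poly(A) RNA is named in the labels, but rRNA depletion in the supplemental methods. The authors trimmed reads with Cutadapt 2.3, aligned them to GRCh38 with STAR 2.7.8a and deposited expected counts per gene, estimated by RSEM 1.3.3 at default parameters, which ignore strand (versions from the submitters' processing notes). They are whole numbers, not normalized. The 5 reporter rows (0 counts) were left out.

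In R 4.3.3, edgeR 4.0.16 kept 17678 genes (filterByExpr, minimum count 10) and compared groups with TMM factors, the quasi-likelihood test and Benjamini-Hochberg adjustment over all of them. DESeq2 1.42.0 was an alternative. The call was an adjusted p under 0.05, also with a fold change of at least 1.5. Ratios of counts within libraries were compared by 2-sided exact permutation tests. The procedure was tested on simulated data with 200 changed genes, of which 159 were called in the right direction. Of 17123 unchanged genes, 10 were called. No shift of all genes was simulated, so that the simulation does not bear on the choice of scaling. Changed genes were few in it, whereas 74.7% of all genes were called in the data. Its rate of false calls may therefore not carry over. The genes, the 5 lists and the alternatives were chosen with earlier results of these data known. From each list, the 3 lowest and 3 highest passing genes with at least 10 CPM in the higher group were named. Exons came from GENCODE release 44.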

Additional observations from a re-analysis of the deposited data

How the results depend on the processing

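Directions depended most on how libraries were scaled. With the mitochondrially encoded mRNAs as the scale, direction turned for GCLM (-0.61), FTH1 (-0.16), TXN (-0.50), NFE2L1 (-0.09), GSTZ1 (-0.04), GPX4 (-0.18), PRDX5 (-0.04), BLVRB (-0.17), FTL (-0.26) and PPOX (-0.35), with the median over all genes moved as well (from 0.03 to -0.71). The counts were then 8 lower and 2 higher among the 10 genes, 17 and 2 among NRF2 partners, 23 and 4 among other targets, 21 and 1 in the glutathione list, 16 and 1 in the thioredoxin list, 22 and 0 in the heme and iron list, and 11878 and 2144 among all genes. At a fold change of at least 1.5, a stricter rule by construction, 2 of the 10 genes were higher, and 4191 of all genes were lower and 4012 higher.

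HMOX1 lost its call without a filter (-0.99, adjusted p = 0.0660), under DESeq2 (-0.96) and with the replicate block (-0.96), and ranged from -1.10 to -0.85 with each library left out. GCLM lost its call with library size only (0.02), without a filter (0.09) and with the replicate block (0.13), and ranged from 0.08 to 0.17. The heme and iron list had 5 higher genes with library size only and also without a filter, in place of 9. For each of these, the cause was not tested. Of 732 values, 685 counted as the same. For this a fold change had to keep its direction and call, and a count to stay within 1.5 times. A log2 ratio had to keep its direction and move by less than the larger of the group SDs. NFE2L2, KEAP1, GCLC, TXNRD1, SRXN1 and SLC7A11 kept their direction and call under each alternative run.

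No shared effect of the replicate numbers was seen. Correlations of deviations from the group means were -0.0208, 0.0417 and 0.0316 for numbers 1, 2 and 3. Between libraries of unlike numbers they ran from -0.0551 to 0.0199. These values cannot settle whether the libraries were paired by design. A replicate block gave 6524 lower and 6447 higher genes, beside 6606 and 6596, and of the 10 genes HMOX1 and GCLM lost their calls.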

Other observations

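The rule for named genes left out targets with under 10 CPM in both groups. Of the other NRF2 targets tested, 8 were of this kind, and they are described here after their values were seen. On the TMM scale 4 rose (ABCC2, AKR1C1, EPHX1 and OSGIN1) and 4 did not pass (NQO1, NQO2, PANX2 and TRIM16L). Of all genes tested, 37.3% rose and 37.4% fell on this scale. On the mitochondrial scale ABCC2 and AKR1C1 were higher, NQO1, NQO2, PANX2 and TRIM16L were lower, and EPHX1 and OSGIN1 did not pass. There 12.1% of all genes were higher and 67.2% lower.

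ABCC2, an efflux pump for glutathione conjugates, had 9, 7 and 7 counts with DMSO and 67, 127 and 106 with AZD4573. Its log2 fold change was 4.09 ± 0.318 (SE) by TMM and 3.35 on the mitochondrial scale. With under 10 counts in each DMSO library, ABCC2 passed the filter on low counts only through the AZD4573 libraries. Its call, also counted among the rises of the other NRF2 targets, is therefore not taken as support. AKR1C1, an aldo-keto reductase, had 31, 23 and 31 counts with DMSO and 94, 128 and 146 with AZD4573, for a log2 fold change of 2.52 (edgeR adjusted p = 2.01e-07) and 1.78 on the mitochondrial scale. Its reads may be shared with near-identical AKR1C paralogs. OSGIN1, an oxidative stress growth inhibitor, had 26, 29 and 28 counts with DMSO and 39, 37 and 59 with AZD4573, for a log2 fold change of 1.10 (edgeR adjusted p = 0.00346) and 0.37 on the mitochondrial scale. EPHX1, an epoxide hydrolase, was at 1.14 CPM with DMSO and 1.91 CPM with AZD4573, a log2 fold change of 0.73 (edgeR adjusted p = 0.00492). NQO2 (-0.20, edgeR adjusted p = 0.139) and PANX2 (-0.20, edgeR adjusted p = 0.571) did not pass, and TRIM16L was at 4.62 CPM with DMSO and 4.63 CPM with AZD4573.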
